A study of Drosophila melanogaster with 42 samples.

Results

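Tiles across the nej locus were read out in a pooled reporter assay in Drosophila melanogaster embryos, in which candidate regulatory regions of about equal length were counted in sorted cells. The tiles are the 17 regions, of 491 in the deposited tables, whose names start with CG15319_. CG15319 is the locus tag of nejire (nej). The rule rests on the name alone and used no read count, although earlier results of these data were known when it was set. In what follows a tile is called by the rest of its name, so that CG15319_down_9 is down_9.

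The gene nej encodes the fly CBP protein, a histone acetyltransferase that serves as a co-activator for many transcription factors and is widely found at active enhancers. Enhancers are stretches of DNA that raise transcription of a gene in particular cells, and a stretch that works as one in a reporter turns on GFP in those cells. Tiling a locus with overlapping fragments is a way to ask which stretch carries such activity.

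Each fly of the pool carried a candidate region as an insert beside a GFP reporter. Pool males were crossed to females in which a driver, labelled twi, mef2 or duf, puts the surface marker CD2 on a subset of embryonic cells. The genes behind these names are known for their roles in mesoderm and muscle: twist in early mesoderm, Mef2 in muscle differentiation and duf in muscle founder cells. Collection of embryos took 2 to 2.5 h at 25 °C and was followed by ageing at 18 °C for 9 to 10 h, dissociated cells were sorted on CD2 and GFP, and the inserts were amplified by nested PCR from crude genomic DNA and sequenced.

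The 42 libraries form 12 groups. For twi there were 3 CD2+ GFP+ libraries with 3 CD2+ inputs, and 3 CD2- GFP+ libraries with 3 CD2- inputs. For mef2 there was 1 pooled CD2+ GFP+ library, set against 5 inputs of CD2- cells, and 3 CD2- GFP+ libraries with 3 CD2- inputs. For duf there was 1 pooled CD2+ GFP+ library with 5 inputs of CD2- cells, and 6 CD2- GFP+ libraries with 6 CD2- inputs. Inputs were sorted on CD2 and not on GFP, so that an insert's share of the reads in GFP+ cells, over its share in the input, is the measure of reporter activity. The inputs beside the single mef2 and duf GFP+ libraries came from fewer cells than the other inputs (20048 to 32326 for mef2 and 39668 for duf, against 200000, or 100000 in replicate 1 of both twi inputs) and are called small inputs. The titles of the duf small inputs give CD2 without a sign, and their source and cell population fields give CD2-, which was followed here. By these labels small inputs lack CD2, whereas the single GFP+ libraries carry it, so CD2 and GFP selection cannot be told apart in those comparisons. GFP+ libraries held 16163 to 138635 cells and inputs 20048 to 200000. The labels do not say that replicates came from separate crosses, so p-values measure the spread between libraries, which may be technical.

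The libraries held 15601849 to 30671353 reads in regions. Values are given in CPM, counts per 1000000 reads in regions, which is a tile's share of its own library. A limit of 3 reads corresponded to 0.0978 to 0.192 CPM, and this limit covers counting error only, since PCR reads without molecular identifiers are not independent molecules. Many regions were low or missing in a given driver: 42.8% of the 491 regions reached 100 reads in at least 1 twi library, 45.6% in at least 1 mef2 library and 87.0% in at least 1 duf library.

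The tiles lie on chromosome X between 9556594 and 9577251 (dm3), a span of 20658 bp. From low to high coordinate come 12 down tiles, a single tile named d, 3 tiles named b_c and 1 tile named up_a. The down tiles cover 9556594 to 9563764 without a gap. Their intervals on chromosome X are 9556594 to 9557668 for down_1, 9557149 to 9558216 for down_2, 9557691 to 9558747 for down_3 and 9558253 to 9559335 for down_4. The middle tiles are down_5 at 9558854 to 9559775, down_6 at 9559374 to 9560449, down_7 at 9559981 to 9560985 and down_8 at 9560499 to 9561463. At the upper end are down_9 at 9561013 to 9562041, down_10 at 9561471 to 9562554, down_11 at 9562058 to 9563093 and down_12 at 9562686 to 9563764. Each down tile shares 402 to 571 bp with the next.

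The tile d follows after 583 bp, at 9564348 to 9565279, and overlaps no other region. Then come b_c_1 at 9568412 to 9569378, b_c_2 at 9568923 to 9569955 and b_c_3 at 9569541 to 9570629, which overlap in turn by 456 and 415 bp. The tile up_a lies alone at 9576229 to 9577251, 5599 bp beyond b_c_3. In all, 15 of the 17 tiles overlap a neighbour, in 13 pairs, and none overlaps a region from outside the locus. A read that falls where tiles overlap can belong to either, and the deposited totals hold fractions, as if such reads were divided. No source used here gives the rule for this, so a tile's total may depend on its neighbours. Start and end reads are those counted at a tile's own ends, and whether neighbours affect them was not tested. Where the tiles fall on exons and introns of nej was not analysed here.

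The tiles were 922 to 1089 bp long, so CPM may be compared between them with little effect of length. They were rich in A and T: 15 of 17 lay below the median GC content of all regions (42.3%), and the median tile had 36.8%. The lowest, down_6, had 28.0%, the lowest of all 491 regions. The highest was d with 52.7%.

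How much of the locus could be read differed between the libraries of the 3 drivers. There were 18 duf libraries, against 12 for twi and 12 for mef2, so driver and number of libraries cannot be told apart here. At least 100 reads in at least 1 library were found for 6 of 17 tiles with twi (down_1, down_3, down_9, down_11, b_c_1 and b_c_3), for 7 with mef2 (the same 6 and down_12) and for 16 with duf. In twi libraries b_c_3 passed only once, with 231 reads. The 20 tiles of the org-1 locus, another gene tiled in this way, gave 7, 6 and 15. Of all 491 regions 42.8%, 45.6% and 87.0% reached that depth. In the same order of drivers, 2 nej tiles (down_9 and down_11), 1 (down_9) and 3 (down_7, down_9 and down_12) had at least 100 reads in every library. Of all regions 13.8%, 10.8% and 23.4% did.

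One tile was all but missing. Tile down_10 had 0 reads in 41 libraries and 3.20 reads, 1 of them at its ends, in mef2 CD2- GFP+ replicate 1. Its neighbours on both sides, down_9 and down_11, share 571 and 497 bp with it and were among the best covered tiles.

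Averaged over the 12 groups, with each group given equal weight, the order of mean levels was down_9 (6558 CPM), down_11 (4398), down_3 (2984), down_1 (1318) and down_12 (1078), then down_7 (459.7), b_c_3 (416), b_c_1 (377), d (309), down_4 (249), down_5 (230.3) and down_2 (204), b_c_2 (113), up_a (31.2), down_6 (20.9), down_8 (7.71) and down_10 (0.00510). The order changed from group to group: the mean of down_11 was above that of down_9 in twi inputs and below it in duf inputs, and neighbours in the order were not tested against each other. The 3 tiles next to one another in the middle of the down stretch, down_8, down_9 and down_10, hold the highest level and the lowest 2 of the locus.

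Tile down_9 was the only tile with at least 100 reads in all 42 libraries. In twi it had 2111, 1844 and 4134 CPM in CD2+ GFP+ libraries, against 10031, 11413 and 13510.1 CPM in CD2+ inputs. Among CD2- cells the tile had 3145, 3602 and 1693 CPM in GFP+ libraries, against 11161, 12935 and 10059 CPM in inputs. All GFP+ libraries lay below all inputs on both sides of the CD2 sort.

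In mef2 the single CD2+ GFP+ library had 153 CPM of down_9, against 15215, 9781, 8597, 4115 and 14798 CPM in the small inputs. Its CD2- GFP+ libraries had 2207, 2199.9 and 641 CPM, against 6535, 8546 and 5607 CPM in their inputs. The groups did not overlap, and the CD2+ GFP+ library held the lowest down_9 level of all 42 libraries.

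In duf the single CD2+ GFP+ library had 5443 CPM of down_9, against 9616, 11521, 11529.5, 8692 and 7363 CPM in the small inputs. The 6 CD2- GFP+ libraries ran from 944 to 4215 CPM with a median of 2534, against 8292 to 20269.9 CPM with a median of 12017 in the 6 inputs. Again no GFP+ library reached the lowest input.

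Lower CPM in GFP+ cells was common in these data. In twi CD2+ cells 4 of the 5 nej tiles tested had every GFP+ library below every input, and of the 195 regions tested 41.5% did so, against 6.67% with every GFP+ library above. The tests below scale libraries by a trimmed mean over regions (TMM), under which the typical region is taken not to change. Scaling by total reads in its place moved the median log2 difference of all regions by -1.61 (CD2+) and -1.30 (CD2-) in twi, by 0.04 (CD2+) and -1.57 (CD2-) in mef2, and by -0.53 (CD2+) and -2.08 (CD2-) in duf. On the TMM scale down_9 differed between GFP+ and input by log2 -0.58 ± 0.82 (SE) for twi CD2+ cells and -0.71 ± 1.07 for twi CD2- cells. The values were -6.10 ± 3.26 for mef2 CD2+ and -0.41 ± 1.13 for mef2 CD2- cells, and for duf they were -0.31 ± 0.65 with CD2 and -0.22 ± 0.40 without it. None of the 6 differences passed edgeR's quasi-likelihood test with Benjamini-Hochberg adjustment.

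Among libraries of one group down_9 varied less than most regions with a group mean of at least 1000 CPM. These regions were not matched to down_9 in level. Its coefficient of variation was 12.7% in twi CD2- inputs, 15.04% in twi CD2+ inputs, 18.6% in the duf small inputs and 53.6%, its largest value, in mef2 CD2- GFP+ libraries. The median over regions of at least 1000 CPM was 46.9%, 56.6%, 82.1% and 76.2% in those 4 groups, in the same order. The number of such regions that varied less than down_9 was 4 of 271 in the duf small inputs, 9 of 129 in twi CD2- inputs and 6 of 121 in mef2 small inputs. It was 26 of 83 in twi CD2+ GFP+ libraries, 30 of 78 in mef2 CD2- GFP+ libraries, 30 of 106 in duf CD2- GFP+ libraries and 41 of 251 in duf CD2- inputs.

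The reads of down_9 lay at its ends. The tables split each region's reads into those at its start, those at its end and the others between. Of all down_9 reads, 98.8% to 100% were start or end reads in each of the 42 libraries, with 45.4% to 55.2% of these at the start. For the median region of the series, over 444 regions with at least 1000 reads in a library, the end share was 23.1% (interquartile range 21.2% to 25.3%). Among those regions 20 had a median end share of at least 99%, down_9 included, and no other of them reached 1000 reads in more than 31 libraries. None of the 15 org-1 tiles with such depth was among them (17.3% to 31.7%).

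Counted by end reads alone, down_9 ranked first of the 491 regions in 19 of the 25 input libraries and no lower than rank 18 in the others. It ranked first in 0 of the 17 GFP+ libraries, where its rank ran from 8 to 42. Nearly all reads of down_9 were start or end reads, so this way of counting favours it. By all reads it ranked 21 to 29 in twi CD2+ inputs and 23 to 34 in twi CD2- inputs. The ranks were 19 to 61 in mef2 small inputs, 36 to 55 in mef2 CD2- inputs, 8 to 37 in duf small inputs and 1 to 27 in duf CD2- inputs.

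Reads inside down_9 appeared where its neighbour down_8 was read. Other than at the ends, down_9 had 2494 reads in duf CD2- input replicate 6, 2288 in replicate 5, 1407.7 in replicate 3 and 217 in replicate 1, and 1716 in the duf small input replicate 5. Tile down_8, which shares 451 bp with down_9, had 3135, 3121, 2831 and 258 reads in those inputs, in the same order, and 1818 in that small input. In the other 37 libraries down_9 had at most 43 reads between its ends and down_8 at most 57.2 reads, and in 29 libraries down_9 had 0. These values are a description, and the points share libraries and a stretch of sequence.

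Start and end reads were split unevenly in several other tiles, most of all in d. In d, which was read only in duf libraries, the start took a median of 8.34% of the start and end reads (0.946% to 13.5% over 17 libraries), whereas the median region had 49.6%. Only 7 of the 444 regions had a median under 10%. Its end share ran from 5.80% to 64.2%, with a median of 12.4%.

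Tile down_11 had start reads but 0 end reads in 5 libraries, all of duf: CD2+ GFP+, CD2- GFP+ replicates 1 and 4, and small inputs 4 and 5. Its start reads there numbered 134 to 1113. Over the whole series such a pattern was seen in 1.11% of the 9265 pairs of region and library with at least 100 start and end reads, and in 5 of 293 pairs of nej tiles. In twi libraries the start of down_11 held 48.9% to 53.2% of its start and end reads. Its end share had a median of 19.2% over the 35 libraries with at least 1000 reads of it, and ran from 17.3% to 98.5%. The start of down_11 lies 17 bp beyond the end of down_9.

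Tile down_8 had 71.6% to 77.1% of its start and end reads at the start in duf CD2- inputs 1, 3, 5 and 6, and 41.8% in the small input replicate 5. Lower start shares were seen in down_12 (8.73% to 62.3% over 21 libraries), down_6 (25.9% to 55.0% over 11) and down_7 (27.2% to 54.8% over 18), with medians of 44.0%, 48.7% and 48.9%. The median end share of down_8 was 50.9%, and that of down_7, the tile before it, was 39.4%. The tiles not named here (down_1 to down_6, down_12, b_c_1 to b_c_3 and up_a) had median end shares of 20.04% to 26.7%.

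Tile down_11 had the highest group mean of the locus in both kinds of twi input, although in CD2- input replicate 2 it lay below down_9. It had 1362, 6253 and 10630.0 CPM in twi CD2+ GFP+ libraries, against 10738, 16278 and 16820.0 CPM in CD2+ inputs. The CD2- GFP+ libraries held 4535, 2772 and 102 CPM, against 13741, 9418 and 19234 CPM in inputs. Neither pair of groups overlapped in CPM, although the highest CD2+ GFP+ library came close to the lowest CD2+ input.

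In mef2 down_11 stood at 269 CPM in the pooled CD2+ GFP+ library, against 339, 5916, 10575, 657 and 74.2 CPM in small inputs. Sorted CD2- cells gave 1032, 4344 and 1.66 CPM in GFP+ libraries, against 9398, 9830.3 and 6929 CPM in inputs. The small inputs spread widely and the CD2+ GFP+ value lay inside their range, whereas the CD2- groups did not overlap.

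In duf down_11 was lower. It amounted to 84.0 CPM in the single CD2+ GFP+ library, against 2092, 0, 956, 51.8 and 58.5 CPM in small inputs. Its CD2- GFP+ libraries ran from 0.641 to 359 CPM with a median of 7.88, against 201 to 862 CPM with a median of 346 in inputs. The highest GFP+ library, replicate 2, lay inside the range of the inputs.

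Tile down_3 was the one with the highest single level in GFP+ cells. In twi it had 129.7, 0.304 and 2.55 CPM in CD2+ GFP+ libraries, against 1363, 5325 and 2630.1 CPM in CD2+ inputs. Without CD2 the values were 1249, 1805 and 24308 CPM in GFP+ libraries, against 1949, 1019 and 1675 CPM in inputs. In CD2+ cells all GFP+ libraries were below all inputs, and in CD2- cells 1 GFP+ library was far above all inputs with the other 2 inside their range.

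In mef2 down_3 reached 9214 CPM in the single GFP+ library of CD2+ cells, against 114, 10982, 3706, 8.57 and 146 CPM in small inputs. Among CD2- cells the tile had 16.8, 1999.9 and 2.72 CPM in GFP+ libraries, against 8551, 5102 and 8049.8 CPM in inputs. The CD2+ GFP+ level lay under the highest small input, and the CD2- groups did not overlap.

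In duf down_3 had 1.5 reads in the CD2+ GFP+ library (0.0684 CPM, under the limit of 3 reads), against 503, 0.558, 0.878, 128 and 2483 CPM in small inputs. The CD2- GFP+ libraries ran from 0.0326 to 505 CPM with a median of 51.2, against 103 to 2829 CPM with a median of 982 in inputs. The small inputs themselves ran from under 1 CPM to the level of the large inputs.

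Tile down_1, at the lower end of the down stretch, had 163, 0 and 1.72 CPM in twi CD2+ GFP+ libraries, against 1332, 1990.2 and 10537 CPM in CD2+ inputs. In twi CD2- cells it had 441, 0 and 11.9 CPM in GFP+ libraries, against 548, 2024 and 566 CPM in inputs. No twi GFP+ library reached the lowest input of its side.

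In mef2 down_1 stood at 53.9 CPM in the pooled CD2+ GFP+ library, against 60.9, 2439, 100.3, 57.3 and 11985 CPM in small inputs. Its CD2- GFP+ libraries held 1112, 0 and 3.13 CPM, against 2067, 926 and 5645 CPM in inputs. These 3 GFP+ libraries ran from 0 to above the lowest input.

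In duf down_1 amounted to 404 CPM in the single CD2+ GFP+ library, against 308, 1434, 0.983, 128 and 4243 CPM in small inputs. The CD2- GFP+ libraries ran from 2.14 to 1176 CPM with a median of 557, against 779.6 to 2498 CPM with a median of 1289.6 in inputs. Both pairs of groups overlapped.

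Tile down_12 had at least 100 reads in every duf library and in 5 of the 12 mef2 libraries. In twi it stayed at or under 4.01 CPM, with 0 reads in 7 of 12 libraries. In mef2 it reached 7.11 CPM in the single GFP+ library of CD2+ cells, against 6.98, 4.47, 0, 0.0603 and 0 CPM in small inputs. In mef2 CD2- cells it had 0, 0.773 and 0 CPM in GFP+ libraries, against 1004, 1057 and 818 CPM in inputs. The 3 large mef2 inputs stood apart from the other mef2 libraries, none of which held over 7.11 CPM.

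In duf down_12 stood at 2128 CPM in the pooled CD2+ GFP+ library, against 2295, 2445, 9260.2, 7166 and 8.80 CPM in small inputs. Its CD2- GFP+ libraries ran from 73.9 to 3642 CPM with a median of 842, against 2220.0 to 8477 CPM with a median of 2888 in inputs. Small input replicate 5 held 169.9 reads where the other small inputs held at least 40046.

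The first question of the design was whether an insert gained or lost share in GFP+ cells. In twi CD2+ cells 5 nej tiles passed the filter on low counts, which keeps a tile that is well covered in either group. None was called in either direction by edgeR's quasi-likelihood test at an adjusted p of 0.05, where 5.13% of 195 regions were called higher and 0% lower. At an unadjusted p under 0.05 the count of nej tiles was 0, where 26 of 195 regions passed. DESeq2 called 0 nej tiles, where it called 13 regions higher and 11 lower. Their log2 differences ran from -4.76 (down_1) to 0.27 (down_11), with a median of -2.72 beside -0.51 over all regions tested.

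In twi CD2- cells 6 tiles were tested and 0 called by edgeR, with 2.94% of 204 regions called higher and 0% lower. Those with every GFP+ library below every input were 3 (down_1, down_9 and down_11), where 38.2% of regions did so, and 0 lay above (3.43%). The median log2 difference was -0.98 for the tiles and -0.29 for all regions. At an unadjusted p under 0.05 there was 1 nej tile, down_3, where 28 of 204 regions passed. Tile down_3 was higher by log2 3.88 ± 1.46 (SE), with an adjusted p of 0.343 in edgeR's test. Its mean was 9121 ± 13156 CPM (SD, n = 3) in GFP+ libraries and 1548 ± 478 CPM (SD, n = 3) in inputs. GFP+ replicate 3, with 459335 reads, set this value: without it the log2 difference was 1.21. With all libraries DESeq2 put down_3 at log2 6.54 but gave it no adjusted p. DESeq2 called b_c_3 higher (log2 6.89, adjusted p = 0.0492), as it did 10.4% of the 163 regions to which it gave an adjusted p, a tile with 0, 3.20 and 12.2 CPM in GFP+ libraries, against 1.59, 0.194 and 0 CPM in inputs.

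In mef2 CD2+ cells 7 tiles were tested and 0 called by edgeR in either direction, with 0.435% of 230 regions called higher and 0% lower. No tile had an unadjusted p under 0.05, where 16 of 230 regions did. DESeq2 called 0 tiles, where it called 1 region higher and 1 lower. The test takes the single GFP+ library to vary as its inputs do. In CPM, down_1 and down_9 lay below all small inputs, as did 12.2% of regions, and down_12 above them all, as did 13% of regions. Log2 differences ran from -9.46 to 1.63 with a median of -5.55, beside -2.29 over all regions. When start and end reads replaced all reads, down_9 was called lower (log2 -6.02, adjusted p = 0.00954 in edgeR's test), as were 1.32% of 228 regions.

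In mef2 CD2- cells 5 tiles were tested and 0 called by edgeR, with 5.46% of 183 regions called higher and 3.83% lower. In CPM 4 of the 5 tiles (down_3, down_9, down_11 and down_12) had all GFP+ libraries below all inputs, where 41.5% of regions did so, and 0 lay above (8.74%). The median log2 difference was -1.37 for the tiles and -0.41 for all regions. Tile down_12 came closest to the threshold: it was 0.258 ± 0.446 CPM (SD, n = 3) in GFP+ libraries and 959.7 ± 126 CPM (SD, n = 3) in inputs. The log2 difference was -10.18 ± 3.32 (SE), with an unadjusted p of 0.0166 and an adjusted p of 0.0979 in edgeR's test. No other nej tile had an unadjusted p under 0.05, where 44 of 183 regions did. Tile down_12 passed the filter on low counts through its inputs. DESeq2 called it lower (log2 -8.38, adjusted p = 3.33e-05), as it did 17.5% of 143 regions. GFP+ libraries held 0, 15.5 and 0 reads of this tile, and the small mef2 inputs, also unselected on GFP, had 0 to 128 reads.

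In duf CD2+ cells 16 tiles were tested and 0 called by edgeR, with 0.235% of 425 regions called higher and 0% lower. No tile had an unadjusted p under 0.05, where 30 of 425 regions did. DESeq2 called 4 lower: down_2 (log2 -13.69, adjusted p = 0.000614), down_3 (-12.13, 0.00229), down_4 (-11.40, 0.00819) and down_6 (-6.52, 0.0216). It called 18% of 377 regions lower. In CPM 5 tiles lay below all small inputs (those 4 and down_9), as did 24.7% of regions, and 0 above (12.2%). The median log2 difference was -2.02 for the tiles and -0.72 for all regions.

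In duf CD2- cells, the comparison with the most libraries, 16 tiles were tested. In edgeR's test 0 were called higher, where 11.8% of 400 regions were, and 1 was called lower, where 1.25% of regions were. The 1 tile was down_8, and it was also the only nej tile with an unadjusted p under 0.05, where 69 of 400 regions passed. It passed the filter on low counts through its inputs, since its GFP+ libraries held 0 to 12 reads. A lower call was thus the only one open to it, and the call is no separate support for a loss. Without the filter its adjusted p was 0.0882 in edgeR's test. With the replicate number as a block it was 0.123. DESeq2 called 0 higher and 1 lower, the same tile, where 1.53% of 391 regions were lower. With start and end reads alone edgeR called that tile too (log2 -5.50, adjusted p = 0.0448), where 1.03% of 390 regions were lower. The median log2 difference was -0.55 for the tiles and -0.07 for all regions.

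Tile down_8 was rare in all libraries. Its 6 CD2- GFP+ libraries held 11.9, 6.44, 9.35, 0, 8.78 and 5.74 reads in the order of replicates 1 to 6, against 258, 30.1, 2831, 57.2, 3121 and 3135 reads in the 6 inputs. That is 0.521, 0.265, 0.411, 0, 0.461 and 0.227 CPM in GFP+ libraries, against 10.0, 1.18, 158, 2.07, 142 and 123 CPM in inputs. The groups did not overlap, and the inputs fell apart into 3 at or under 10.0 CPM and 3 at or over 123 CPM. In sum there were 42 reads in GFP+ libraries and 9432 in inputs, and mean CPM was 231-fold lower in GFP+ cells. That ratio is not on the TMM scale, and the 3 inputs at or over 123 CPM set the input mean. Scaling by total reads moved the median of all regions by log2 -2.08 in this comparison, so the ratio is larger than the fitted difference below.

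The fitted difference of down_8 was log2 -5.80 ± 1.81 (SE), with an adjusted p of 0.0435 in edgeR's quasi-likelihood test and 0.0405 in DESeq2. GFP+ and input libraries of one replicate number deviated together, and with the replicate number as a block the call was lost (log2 -5.12, adjusted p = 0.123). With the sequencing lane as a block it was lost too (log2 -6.85, adjusted p = 0.183). Only lanes 1 and 8 held both GFP+ and input libraries of this comparison, so the lane fit rests on those lanes. Within lane 1 the tile had 0 CPM in the GFP+ library and 10.0 CPM in the input, and within lane 8 it had 0.521 CPM in the GFP+ library and 142 and 123 CPM in the inputs.

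Leaving out 1 library at a time kept the log2 difference of down_8 between -6.15 and -5.53. The adjusted p in edgeR's test was above 0.05 in 10 of these 12 fits (0.0534 to 0.0947), so that the call was lost in them, and it held without input replicate 2 or 4. The GFP+ libraries came from 36206 to 55331 cells and the inputs from 200000 each, and the part of cell number in the result was not tested. Elsewhere the tile had 0 reads in the duf CD2+ GFP+ library, against 0.845, 2.30, 0.153, 0 and 94.2 CPM in the small inputs. It had 0 reads in all 24 twi and mef2 libraries, which allows up to 0.181 CPM in any of them.

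In duf CD2- cells 3 further tiles had all GFP+ libraries below all inputs in CPM, 4 with down_8, where 22.2% of regions did so, and 0 lay above (4%). They were down_7, down_9 and d. Tile down_7 had 128 to 564 CPM with a median of 365 in GFP+ libraries, against 1705 to 4472 CPM with a median of 2624 in inputs. Tile d had 48.2 to 542 CPM with a median of 287 in GFP+ libraries, against 1306 to 2144 CPM with a median of 1760.4 in inputs.

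On the TMM scale neither of these tiles was called, with log2 differences of -0.89 ± 0.67 (SE) for down_7 and -0.43 ± 0.78 for d. Scaling by total reads, which moved the median of all regions by -2.08, called down_7, down_8, down_9 and d lower, as it did 23.8% of 400 regions. In the other duf groups down_7 amounted to 1033 CPM in the single CD2+ GFP+ library, against 2124, 1088, 2149, 637 and 699 CPM in small inputs. Tile d reached 567 CPM in the single GFP+ library of CD2+ cells, against 3618, 636, 624, 424 and 1.76 CPM in small inputs. In twi and mef2 libraries d had 0 reads and down_7 at most 0.5 reads.

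The remaining 4 down tiles were read in duf libraries only. Tile down_2 had 1.5 reads in the CD2+ GFP+ library, against 1259, 8009, 0.411, 1004 and 1.84 CPM in small inputs. Without CD2 it ran from 0 to 208 CPM with a median of 0.689 in GFP+ libraries, against 1.79 to 1129.6 CPM with a median of 119.9 in inputs. Small input replicate 2 stood far above every other library.

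Tile down_4 stood at 0.258 CPM in the pooled CD2+ GFP+ library, against 2139, 1.32, 1.24, 3505 and 1.31 CPM in small inputs. Among CD2- cells it ran from 0.315 to 856 CPM with a median of 338 in GFP+ libraries, against 689.6 to 2013 CPM with a median of 1604 in inputs. The CD2- groups overlapped only through GFP+ replicate 5.

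Tile down_5 amounted to 737 CPM in the single CD2+ GFP+ library, against 1505, 0.259, 1.17, 1.48 and 73.6 CPM in small inputs. The CD2- GFP+ libraries had 0.847 to 579 CPM with a median of 221, against 528 to 2284 CPM with a median of 1580.2 in inputs. It was the only tile among these 4 with over 1 CPM in the CD2+ GFP+ library.

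Tile down_6, the poorest in G and C, reached 0.727 CPM in the single GFP+ library of CD2+ cells, against 27.2, 123, 121, 0.946 and 252 CPM in small inputs. Without CD2 it ran from 0 to 41.5 CPM with a median of 1.45 in GFP+ libraries, against 19.5 to 275 CPM with a median of 125 in inputs. In twi and mef2 libraries these 4 tiles had at most 4 reads.

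The 3 b_c tiles lie in the middle of the locus and had at least 100 reads in 18 (b_c_1), 10 (b_c_2) and 13 (b_c_3) of the 42 libraries. In twi, b_c_1 had 0.722, 0.261 and 155 CPM in CD2+ GFP+ libraries, against 11.4, 2.72 and 2501 CPM in CD2+ inputs. Sorted CD2- cells gave 4.48, 0 and 0.370 CPM in GFP+ libraries, against 0.513, 0 and 730.2 CPM in inputs. Replicate 3 was the highest in 3 of the 4 twi groups.

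In mef2, b_c_1 stood at 3.14 CPM in the pooled CD2+ GFP+ library, against 4.63, 0.171, 20.3, 8746 and 0.889 CPM in small inputs. Without CD2 the values were 0.402, 0 and 0.0296 CPM in GFP+ libraries, against 532, 817 and 0 CPM in inputs. Small input replicate 4 held nearly all of its mef2 reads among small inputs.

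In duf, b_c_1 amounted to 0.215 CPM in the single CD2+ GFP+ library, against 0.370, 705, 1.21, 0.243 and 0 CPM in small inputs. Among CD2- cells it ran from 0 to 546 CPM with a median of 72.5 in GFP+ libraries, against 126 to 2510.0 CPM with a median of 488 in inputs. Every large input held it, whereas 4 of the 5 small inputs had at most 1.21 CPM.

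Tile b_c_2 was read in duf only, with at most 3.5 reads elsewhere. It reached 129 CPM in the single GFP+ library of CD2+ cells, against 15.2, 242, 2802, 0.468 and 1.35 CPM in small inputs. Its CD2- GFP+ libraries had 0.0793 to 211 CPM with a median of 0.936, against 1.34 to 1679 CPM with a median of 244 in inputs. Without GFP+ replicate 5, the highest of its group, b_c_2 was called lower and down_8 was not (log2 -7.32, adjusted p = 0.0338 in edgeR's test), where 0.978% of 409 regions were lower.

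Tile b_c_3 had 5.06 CPM in the mef2 CD2+ GFP+ library, against 21.2, 3.76, 0, 2.65 and 19011 CPM in small inputs. In mef2 CD2- cells it had 0, 0.0499 and 3.01 CPM in GFP+ libraries, against 0, 0.491 and 585 CPM in inputs. Outside small input replicate 5 no mef2 library held over 585 CPM of this tile. In twi CD2+ cells it had 0, 0.109 and 1.78 CPM in GFP+ libraries, against 0.154, 0.0272 and 0 CPM in inputs.

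In duf, b_c_3 stood at 261 CPM in the pooled CD2+ GFP+ library, against 0, 0.404, 1170.3, 955 and 0 CPM in small inputs. Without CD2 it ran from 0 to 231 CPM with a median of 0.429 in GFP+ libraries, against 0 to 573 CPM with a median of 194 in inputs. The large inputs fell into 4 with 142 to 573 CPM and 2 with 0 reads.

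Tile up_a, alone at the upper end of the locus, was read in duf only, with 0 reads in all 24 twi and mef2 libraries. It had 1 read in the CD2+ GFP+ library, against 105, 0, 0.256, 0.243 and 0.518 CPM in small inputs. Among CD2- cells it ran from 0 to 393 CPM with a median of 0.175 in GFP+ libraries, against 0 to 1194 CPM with a median of 125 in inputs. GFP+ replicate 6 held 9915 reads, whereas no other GFP+ library held more than 8.

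The difference between GFP+ enrichment in CD2+ and in CD2- cells was also fitted for each driver, although only twi had CD2+ inputs. In mef2 and duf the CD2+ enrichment is that of the single CD2+ GFP+ library over small inputs of CD2- cells. CD2 and GFP selection cannot be told apart in it, so calls there do not measure GFP+ enrichment in CD2+ cells alone. Of 6 nej tiles tested in twi, 0 were called by edgeR (0% of 211 regions in either direction). DESeq2 called 0 tiles, where it called 5 regions higher and 7 lower. An unadjusted p under 0.05 was found for 22 of 211 regions and 1 nej tile. That tile was down_3, whose enrichment was lower in CD2+ than in CD2- cells by log2 -8.63 ± 2.83 (SE), with an adjusted p of 0.196 in edgeR's test. DESeq2 gave down_3 no adjusted p here, so its 0 calls do not bear on this tile.

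Of 7 tiles in mef2, 0 were called by edgeR (0% of 231 regions higher and 0.433% lower). An unadjusted p under 0.05 was found for 37 of 231 regions and 1 nej tile. It was down_12, with log2 11.23 ± 4.49 (SE) and an adjusted p of 0.276. DESeq2 called down_12 higher (log2 11.96, adjusted p = 0.0318) and down_9 lower (log2 -5.43, adjusted p = 0.0484) in CD2+ than in CD2- cells, where it called 8.11% of 185 regions higher and 7.57% lower. The mef2 CD2+ enrichment was measured against small inputs, in which down_12 was nearly absent, and the CD2- enrichment against large inputs, in which it was not.

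Of 16 tiles in duf, 0 were called by edgeR (0% of 430 regions in either direction). None had an unadjusted p under 0.05, where 30 of 430 regions did. DESeq2 called down_2, down_3 and down_4 lower in CD2+ than in CD2- cells, with log2 values of -12.50, -11.63 and -11.72 and adjusted p of 0.00672, 0.00473 and 0.000497. That is 3 of 16 tiles, where it called 19.4% of 423 regions lower. The duf CD2+ value is that of 1 library.

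Inputs were set against each other as a measure of how far tiles differ with no selection on GFP. These tests share their libraries with the comparisons above. Between twi CD2+ and CD2- inputs 0 of 5 tiles were called by edgeR (0% of 204 regions in either direction). An unadjusted p under 0.05 was found for 3 of 204 regions and 0 nej tiles. DESeq2 called 3 regions higher, 2 lower and 0 of the 5 nej tiles. None of them had groups that did not overlap (1.47% of regions above and 2.94% below).

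Between small and large mef2 inputs 0 of 7 tiles were called by edgeR (0% of 221 regions in either direction). In down_12, the only one with an unadjusted p under 0.05, all small inputs lay below all large ones, where 12.7% of regions did so, and no tile lay above (2.26%). Its log2 difference was -8.74 ± 2.69 (SE), with an adjusted p of 0.187 in edgeR's test and 0.00107 in DESeq2, which called it and 9.71% of 175 regions lower. This difference between unselected inputs was nearly as large as that of down_12 between mef2 CD2- GFP+ cells and their inputs.

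Between small and large duf inputs 0 of 16 tiles were called by edgeR (0% of 412 regions in either direction). An unadjusted p under 0.05 was found for 21 of 412 regions and 0 nej tiles. DESeq2 called 3 regions higher, 5 lower and 0 of the 16 nej tiles. Groups that did not overlap were found in 0 tiles (0.485% of regions above and 0.485% below). Tile down_9 had the smallest error of the locus in this comparison, with log2 -0.02 ± 0.28 (SE).

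Summed over the locus, nej tiles took 651.9 to 26128 CPM of the GFP+ libraries and 13587 to 46015 CPM of the inputs. Tile down_9 alone held 1.58% of this sum in the mef2 CD2+ GFP+ library, where down_3 held most of it, and 98.4% in 1 mef2 CD2- GFP+ library. The number of nej tiles with at least 100 reads ran from 1 to 13 over GFP+ libraries and from 4 to 16 over inputs, with all 16 that were ever read present together in at least 1 duf input.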

How the data were processed

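The assay counted inserts in genomic DNA of sorted embryonic cells in 42 libraries, each with 1 deposited table. Per the submitters' processing notes, the build was dm3 and CASAVA 1.8 was used. No source used here names the mapper. The deposited total per region is an expected count, since it holds fractions in 2 to 86 regions per library. It is the sum of start reads and end reads, which are deposited as whole counts, and of other reads. The authors' tables also hold GC content as a fraction and a column of covered positions, which no source used here defines. The tables show no normalisation by the authors. In 11 tables regions were listed on more than 1 line under the same name, 3 regions in all and none of them a nej tile. Their lines were merged, with end reads taken once and other reads summed.

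Totals were rounded to whole numbers and fitted for all regions of a comparison with edgeR 4.0.16 in R 4.3.3 (TMM scaling, filterByExpr, quasi-likelihood F test, no covariates), with Benjamini-Hochberg adjustment over all regions tested and a threshold of 0.05. Standard errors were taken as the log2 difference over the root of F. DESeq2 1.42.0, scaling by total reads, other filters, start plus end reads, a replicate block, a lane block, all 4 groups of a driver in 1 fit, all CD2- inputs as control and leaving out each library were alternatives. Tiles to which DESeq2 gave no adjusted p counted as not called. The fit was tested on simulated data. Samples were grouped by their labels, and all libraries were used. GFP+ and input libraries of the same number deviated together, with r of 0.17 to 0.31 for twi CD2+ cells, 0.18 to 0.25 for twi cells without CD2 and 0.18 to 0.39 for duf CD2- cells (between twi inputs it was 0.47 to 0.69), so the numbers were taken to pair them there. Values by library (for groups of 6 the lowest, median and highest) were given for tiles past the threshold, tiles that overlap another region, tiles read at the ends and the 5 tiles of highest mean level, and the others are shown as well. The tiles and lists were chosen with earlier results of these data known. The tiles of the slou locus, meant for a side by side description, were not used here. No sequence is shown, since none of this build was used here.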

Additional observations from a re-analysis of the deposited data

Results flagged for a closer look

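In 54 sets of tile and group with 5 or 6 libraries, the gap between the most extreme library and its neighbour was set against the range of the group, with Dixon's critical value. One library stood apart in 21 sets, whereas chance gives about 1 in 20 for normally distributed values. CPM has a floor at 0 and ran over several orders of magnitude here, so that rate does not apply to it. In all 21 sets it was the highest library.

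Among the 6 duf CD2- GFP+ libraries, replicate 2 stood apart in down_2 (208 CPM), down_11 (359 CPM) and b_c_3 (231 CPM). Replicate 5 stood apart in down_12 (3642 CPM) and b_c_2 (211 CPM). Single tiles were high in replicate 3 (down_6, 41.5 CPM), replicate 4 (b_c_1, 546 CPM) and replicate 6 (up_a, 393 CPM). The next highest library of down_2, b_c_2, b_c_3 and up_a in this group held at most 3.43 CPM.

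Among the duf CD2- inputs, replicate 3 stood apart in down_3 (2829 CPM) and replicate 5 in up_a (1194 CPM).

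Among the 5 duf small inputs, replicate 1 stood apart in down_5 (1505 CPM), d (3618 CPM) and up_a (105 CPM), replicate 2 in down_2 (8009 CPM) and b_c_1 (705 CPM), replicate 3 in b_c_2 (2802 CPM), and replicate 5 in down_3 (2483 CPM) and down_8 (94.2 CPM).

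Among the 5 mef2 small inputs, replicate 5 stood apart in down_1 (11985 CPM) and b_c_3 (19011 CPM) and replicate 4 in b_c_1 (8746 CPM). No set of down_9 was among the 21.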

How the results depend on the processing

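The count of nej tiles called was refitted in 12 comparisons under DESeq2, total-read scaling, no filter, start plus end reads and leaving out each library of a group of over 1, in 6 with a mean count of at least 100, in 6 with the replicate block and in 1 with the lane block. DESeq2 moved the count to 1 in twi CD2-, 1 in mef2 CD2-, 4 in duf CD2+, 2 in the mef2 and 3 in the duf difference of enrichments, and 1 between mef2 inputs. Start plus end reads moved it to 1 in mef2 CD2+. In duf CD2- cells, with 1 tile called, total-read scaling gave 4, no filter gave 0, a mean count of at least 100 gave 0, the replicate block gave 0, the lane block gave 0, and leaving out each library gave 0 to 1. For down_8 itself the log2 difference ran from -7.84 to -5.12 over 19 alternatives, with adjusted p of 0.013 to 0.183. The sign of down_9 turned under DESeq2 in twi CD2- (log2 0.70) and mef2 CD2- (0.91), and without mef2 CD2- GFP+ replicate 3 (0.10, in a range of -0.55 to 0.10 over fits that left out a library), none of them called. The causes were not tested. The replicate block changed no other call of a nej tile. In mef2 CD2- cells same-numbered libraries had r of 0.07 to 0.19, each library's best match being its own number, and the block moved no count there (0 called). The number of tiles read at 10 or 1000 reads in place of 100, or by end reads, was 5 to 7 for twi, 7 for mef2 and 16 for duf. A value under 3 reads lies under the limit of counting error. This holds for down_2 and down_3 in the duf CD2+ GFP+ library (1.5 reads each), which DESeq2 called lower.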

Other observations

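The deposited column of covered positions did not follow the read totals at these tiles. In 124 of the 282 pairs of tile and library with 0 reads, spread over 10 tiles, the column held a value above 0. For down_10, which had 0 reads in 41 libraries, it was above 0 in 36 libraries and reached 1140, more than the length of the tile, and the largest value at any nej tile was 2406. No source used here defines it.

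Set beside the tiles of org-1, those of nej were alike in the share of tiles that could be read in twi libraries, at 35.3% for nej and 35% for org-1, beside 42.8% of all regions. In duf libraries the shares were 94.1% for nej and 75% for org-1, beside 87.0% of all regions. In duf CD2- cells edgeR's quasi-likelihood test called 1 of 14 org-1 tiles higher and 0 lower, against 0 higher and 1 lower of 16 nej tiles. Whether the loci differ was not tested.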
